A study of Mus musculus with 107 samples.

Results

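Livers of 52 female F2 mice were compared, 26 with the highest and 26 with the lowest level of Ogg1 messenger RNA, out of 104 mice with usable arrays and 107 arrays in all. All were offspring of an intercross that began with C57BL/6J and DBA/2J, and all ate an atherogenic diet, which raises blood lipids, so the labels put them in 1 group. A 2-colour array set the liver RNA of 1 mouse against a pool made of equal RNA portions of the animals. A value is read here as the log ratio of mouse to pool, a direction the labels do not state. The 2 groups were chosen by the measured ratio of the 1 probe annotated Ogg1, after values at the limits of the scale were set missing. The difference in Ogg1 between the groups is therefore the choice itself and was not tested, while all other genes were.

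Ogg1 encodes the DNA glycosylase that removes 8-oxoguanine, an oxidised form of guanine, from DNA. The glycosylase opens base excision repair, in which an endonuclease, a polymerase and a ligase then cut, fill and seal the strand. Liver is rich in mitochondria and peroxisomes, which produce oxidants as by-products of fuel use. Ogg1 lies on chromosome 6, and in an F2 cross genes on the same chromosome tend to be inherited together, the more so the closer they lie.

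In high Ogg1 livers the lowest Ogg1 log2 ratio to the pool was 0.35 (mouse 32), the median 0.50 and the highest 0.89 (mouse 26). In low Ogg1 livers the lowest was -0.98 (mouse 122), the median -0.64 and the highest -0.24 (mouse 155). The other 52 mice lay from -0.17 to 0.31, with a median of 0.03. The cut at the upper end fell between 0.35 (mouse 32) inside and 0.31 (mouse 62) outside, and that at the lower end between -0.24 (mouse 155) inside and -0.17 (mouse 87) outside. Mean Ogg1 was 0.55 ± 0.14 in high and -0.64 ± 0.18 in low Ogg1 livers (SD, n = 26 each), a 2.28-fold difference made by the choice. The widest empty stretch in the ranking was inside the high group, from 0.62 to 0.77, and the next inside the low group, from -0.37 to -0.27.

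**Figure D1:**
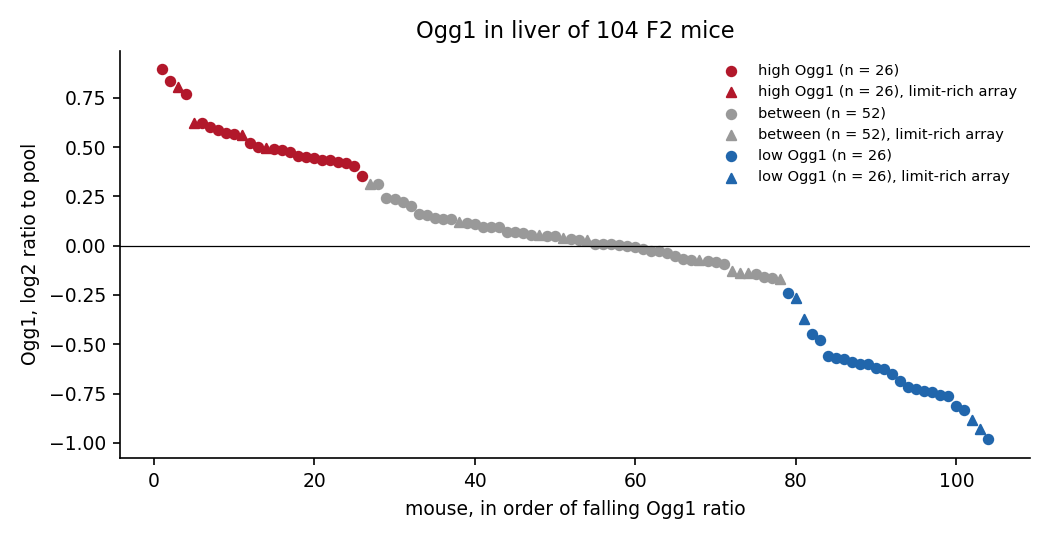
Ogg1 log2 ratio to the pool (y axis) for each of 104 mice in order of falling ratio (x axis), with red for the 26 high, grey for the 52 between and blue for the 26 low Ogg1 livers, and triangles for limit-rich arrays. High Ogg1 livers run from 0.89 down to 0.35 and low Ogg1 livers from -0.24 down to -0.98.

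The sequence in front of Ogg1 is shown because its transcript ranks the mice. Those of Anxa4 and Dusp16 are shown because they had the lowest p among genes higher and among genes lower in high Ogg1 livers for which the promoter table had an entry. They are the 250 bases before an annotated start in RefSeq (build GRCm38.p6), the C57BL/6J reference and not read from these mice. Anxa4 had 2 starts listed, of which the first was used and the other not searched. Ogg1 is at chr6:113326726-113326975 on the + strand, Anxa4 at chr6:86793585-86793834 on the - strand, and Dusp16 at chr6:134792629-134792878 on the - strand. Capitals mark the GC box GGGCGG and the box CCAAT on either strand, which can run into each other.
Ogg1: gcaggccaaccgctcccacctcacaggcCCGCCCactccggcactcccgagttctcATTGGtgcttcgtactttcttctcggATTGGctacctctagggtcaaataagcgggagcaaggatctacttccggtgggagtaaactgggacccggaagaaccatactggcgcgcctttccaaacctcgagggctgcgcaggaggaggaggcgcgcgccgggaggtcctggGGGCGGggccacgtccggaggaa
Anxa4: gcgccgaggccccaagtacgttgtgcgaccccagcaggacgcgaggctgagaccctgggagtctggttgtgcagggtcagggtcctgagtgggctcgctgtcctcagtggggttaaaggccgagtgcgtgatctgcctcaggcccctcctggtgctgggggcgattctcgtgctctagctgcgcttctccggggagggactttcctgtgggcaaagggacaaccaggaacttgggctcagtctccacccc
Dusp16: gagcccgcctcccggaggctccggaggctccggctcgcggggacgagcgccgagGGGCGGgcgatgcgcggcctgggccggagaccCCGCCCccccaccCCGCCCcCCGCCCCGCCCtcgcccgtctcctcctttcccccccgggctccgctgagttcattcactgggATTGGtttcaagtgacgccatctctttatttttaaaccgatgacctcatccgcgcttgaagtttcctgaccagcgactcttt

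The GC box was found 2 times before Ogg1, 0 times before Anxa4 and 5 times before Dusp16. The box CCAAT was found 2 times before Ogg1, 0 times before Anxa4 and 1 time before Dusp16. Of 32851 windows of this length, 32.7% held the GC box and 33.8% the box CCAAT. The match says only that these letters stand in the window.

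Ratios to a pool hold no level, so the tissue could not be checked by the level of its markers. Of 6 hepatocyte markers 0 passed between the groups, beside 0.0975% of all genes. A lack of difference between the groups cannot show which tissue was taken. Array measures that the ranking did not use were close in both groups. Limit-rich arrays, which hold more than 700 values at the limits of the scale, numbered 4 of 26 among high and 4 of 26 among low Ogg1 livers, and 18 of 104 in all. The median SD of an array over its probes was 0.43 log2 in both groups, and the median mouse number was 67.5 in the high and 80 in the low group. Neither the base of the logarithm nor the direction of the ratio is stated in the labels. Base 10 was taken because values stop at exactly -2 and 2. Under natural logarithms each log2 difference would be 0.434 of the size given, with the same calls. Mouse over pool is the likely direction from the sample titles, and 7 of 5356 pairs of arrays correlated below -0.3. With all signs turned, high and low mice changed places and each level changed sign, and the differences between the groups kept their size and sign (12 genes called, 7 higher and 5 lower). With 1 array per animal, variation between mice and noise of the array cannot be told apart, and 26 arrays per group set the precision.

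Livers with high Ogg1 differed from livers with low Ogg1 in a small set of genes, and each of them lies on chromosome 6 with Ogg1. Of 12314 other genes, 12 passed limma's test at an adjusted p under 0.05, which is 0.0975% of those tested. Of these, 7 (0.0568%) were higher and 5 (0.0406%) lower in high Ogg1 livers. Chromosome 6 held 653 tested genes, of which 1.84% passed, and 0 of the 11661 genes on other chromosomes or unplaced passed. At an unadjusted p under 0.05, limma gave 1685 genes (13.7%), 110 (16.8% of its genes) on chromosome 6 and 1575 (13.5%) elsewhere. The median absolute difference was 0.10 log2 on chromosome 6 and 0.09 elsewhere. Chromosome 6 was not the highest chromosome on either of these 2 measures. The unadjusted share was 19.0% on chromosome 19, and the median absolute difference was 0.0971 on chromosome 9, beside 0.0959 on chromosome 6. The lowest p values among genes that missed the threshold were those of Ift122 on chromosome 6 (0.51 ± 0.12 SE, adjusted p = 0.0607) and Ap1ar on chromosome 3 (-0.22 ± 0.05 SE, adjusted p = 0.0607), both named after their values were seen. Ap1ar passed with arrays centred on their median (adjusted p = 0.0436), so that the count elsewhere was not 0 under every setting.

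Among the 5 genes past the threshold that fell in high Ogg1 livers, Lrp6, Dusp16 and Pik3c2g had the largest falls. Lrp6, a co-receptor for Wnt ligands, had a lowest value of -2.37, a median of -0.77 and a highest value of 0.47 on the log2 scale in high Ogg1 livers, against -0.05, 0.40 and 1.16 in low Ogg1 livers. In 22 of 26 high Ogg1 livers Lrp6 lay below its value in every low Ogg1 liver, and the groups overlapped through the other 4. The difference was -1.27 ± 0.14 (SE), 2.41-fold lower (limma, adjusted p = 3.93e-08). Without limit-rich arrays it was -1.07. Dusp16, a phosphatase that switches off MAP kinases, had -1.46, -0.63 and 0.82 in high against -0.20, 0.29 and 1.32 in low Ogg1 livers. It fell by 0.83 ± 0.13 (limma, adjusted p = 0.000137), and 20 of 26 high Ogg1 livers lay below every low one. Pik3c2g, a class II phosphoinositide kinase found mainly in liver, had -2.55, -0.50 and 0.45 in high against -0.33, 0.23 and 1.05 in low Ogg1 livers. It fell by 0.76 ± 0.13 (limma, adjusted p = 0.00175), and 16 of 26 high Ogg1 livers lay below every low one.

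The other 2 called genes that fell changed less. Ltbr, the lymphotoxin beta receptor, had a lowest value of -1.42, a median of -0.17 and a highest of 0.08 log2 in high Ogg1 livers, against -0.20, 0.06 and 0.52 in low Ogg1 livers. It fell by 0.31 ± 0.07 (limma, adjusted p = 0.0335), and 11 of 26 high Ogg1 livers lay below every low one. Zfp9, a zinc finger gene, had -0.33, -0.06 and 0.32 in high against -0.16, 0.15 and 0.59 in low Ogg1 livers. Its fall by 0.21 ± 0.04 passed the test (limma, adjusted p = 0.0201) although most mice of both groups overlapped, with 9 of 26 high Ogg1 livers below every low one. Both lost the call without the limit-rich arrays (4 high and 4 low), at 0.0829 for Ltbr and 0.163 for Zfp9. Ltbr also missed the threshold in 11 of 52 fits that left out a single mouse, up to an adjusted p of 0.0678.

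Anxa4, Mrpl35, Borcs5 and Eif4e3 were among the 7 called genes that rose. Anxa4, an annexin that binds membranes in the presence of calcium, had a lowest value of -0.24, a median of 0.31 and a highest of 1.28 log2 in high Ogg1 livers, against -1.53, -0.80 and 0.45 in low Ogg1 livers. All 26 high Ogg1 livers lay above the median of the low ones and 9 above every low one. The rise was 1.06 ± 0.13 (SE), 2.08-fold (limma, adjusted p = 4.41e-07). Mrpl35, a protein of the mitochondrial ribosome, had -0.43, 0.38 and 0.91 in high against -1.17, -0.54 and 0.49 in low Ogg1 livers. It rose by 0.77 ± 0.10 (limma, adjusted p = 5.51e-06), with all 26 high Ogg1 livers above the low median. Borcs5, a subunit of the complex that positions lysosomes, had -0.38, 0.21 and 0.66 in high against -0.71, -0.28 and 0.25 in low Ogg1 livers. It rose by 0.41 ± 0.08 (limma, adjusted p = 0.00200), with 24 of 26 high Ogg1 livers above the low median. Eif4e3, which binds the messenger RNA cap, had -0.51, 0.39 and 0.91 in high against -0.73, -0.17 and 0.54 in low Ogg1 livers. It rose by 0.43 ± 0.09 (limma, adjusted p = 0.0201), and this call was lost without the limit-rich arrays (0.265).

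**Figure D2:**
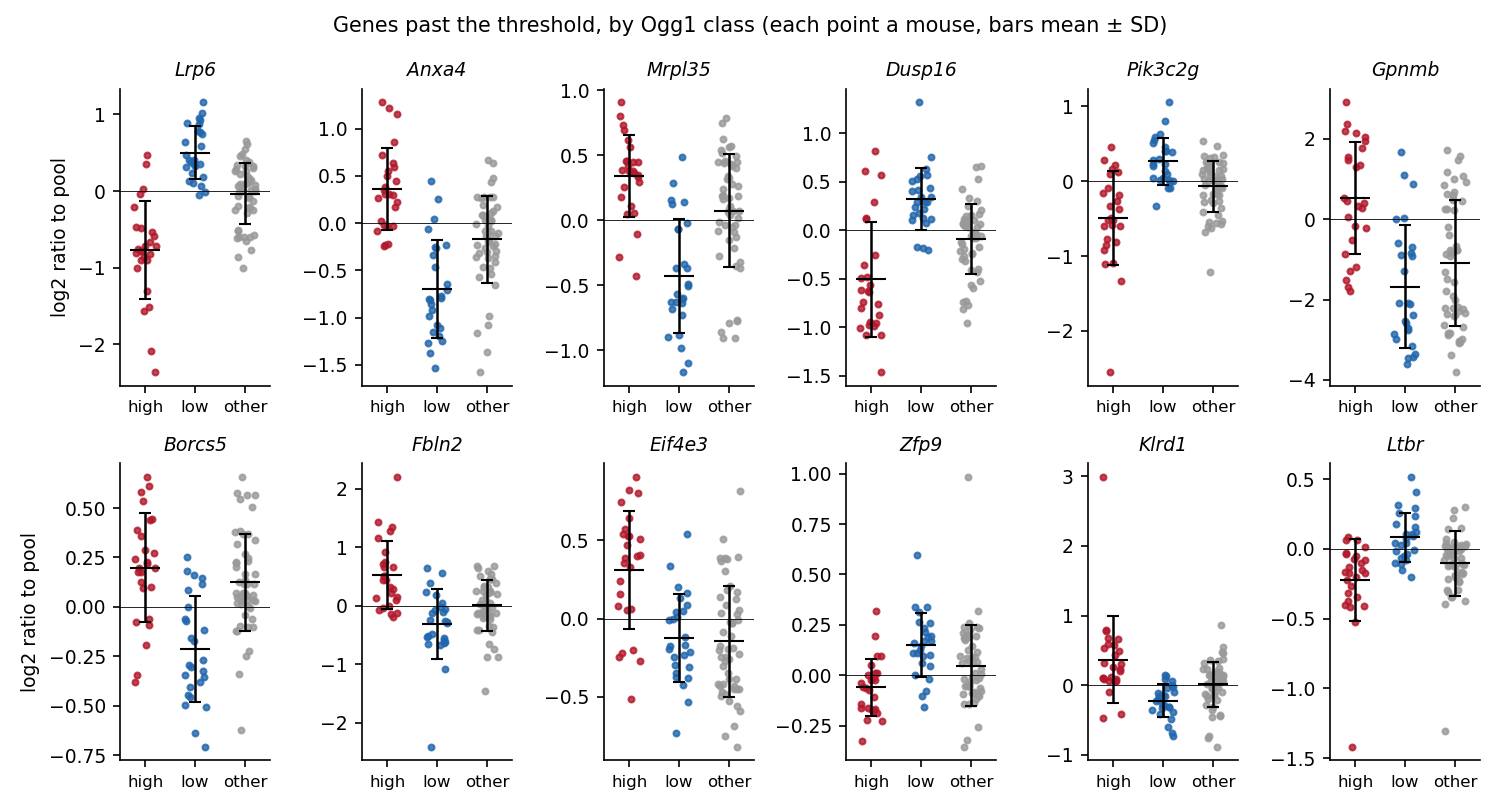
Log2 ratio to the pool (y axis) of the 12 genes past the threshold in high (red), low (blue) and the other 52 mice (grey), each point a mouse and each bar the mean ± SD. Lrp6 lies below 0 in most high Ogg1 livers and above 0 in most low ones, and Anxa4 the other way round.

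Of the 12 genes past the threshold, Gpnmb had the largest difference. It encodes a membrane glycoprotein of macrophages and pigment cells, of which DBA/2J carries a version with a premature stop. Gpnmb had a lowest value of -1.80, a median of 0.43 and a highest of 2.91 log2 in high Ogg1 livers, against -3.59, -2.11 and 1.68 in low Ogg1 livers. Its spread was wide in both groups, and 7 of 26 high Ogg1 livers lay above every low one. The rise was 2.21 ± 0.40 (SE), 4.63-fold (limma, adjusted p = 0.00175). Of 11 measured macrophage and Kupffer cell markers, 0 passed, beside 0.0975% of all genes, and 10 had a positive difference, with a median of 0.50. The part of these markers in the difference of Gpnmb was not tested. In bulk liver, fewer cells of a type and less RNA per cell cannot be told apart.

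The other called genes that rose were Fbln2 and Klrd1. Fbln2, a protein of the extracellular matrix, had -0.19, 0.44 and 2.20 log2 in high against -2.41, -0.27 and 0.65 in low Ogg1 livers. It rose by 0.84 ± 0.16 (limma, adjusted p = 0.00466), but its 2 probes disagreed, with 1.21 ± 0.22 for one and 0.41 ± 0.19 for the other. Tested by itself the second probe missed the threshold (limma, adjusted p = 0.361). The differences of Fbln2 and Lrp6 were also larger on limit-rich than on other arrays, in a test of interaction that passed for 5.36% of 12298 genes. Of 11 stellate cell and fibroblast markers 0 passed, beside 0.0975% of all genes, with a median difference of 0.36. The part of these markers in the difference of Fbln2 was not tested. With the first principal component of all genes as a covariate the difference was 0.53 for Fbln2, over 1.5 times smaller, and 1.51 for Gpnmb. Klrd1, the CD94 receptor of natural killer cells, which DBA/2J mice lack, had -0.47, 0.25 and 2.99 log2 in high against -0.73, -0.21 and 0.15 in low Ogg1 livers. It rose by 0.59 ± 0.13 (limma, adjusted p = 0.0323), and 15 of 26 high Ogg1 livers lay above every low one. The adjusted p of Klrd1 was 0.163 when limit-rich arrays were left out and 0.225 with the first principal component as a covariate, and 7 of 52 fits that left out 1 mouse lost the call. T and NK cell markers had a median difference of 0.13 with 0 of 11 past the threshold, beside 0.0975% of all genes. The part of these markers in the difference of Klrd1 was not tested.

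Genes past the threshold were spread along chromosome 6 and none was among the nearest genes to Ogg1. Distances are from the gene table of GRCm38.p6, between the midpoints of genes, with a minus sign towards the start of the chromosome. Of 44 genes measured within 5 Mb of Ogg1, 0 passed at an adjusted p under 0.05 by limma. The share past the threshold was 2.08% of 48 genes at 5 to 10 Mb, 3.16% of 95 at 10 to 20 Mb, 3.09% of 194 at 20 to 40 Mb and 0.735% of 272 farther away. Zfp9 lay nearest, at 5.14 Mb, and Gpnmb farthest, at -64.28 Mb. Lrp6 (21.18 Mb), Borcs5 (21.34 Mb) and Dusp16 (21.43 Mb) are close neighbours of each other, and among them Borcs5 rose while Lrp6 and Dusp16 fell. All 5 genes that fell lay towards the end of the chromosome from Ogg1, between 5.14 and 26.46 Mb, together with Klrd1 (16.26 Mb) and Borcs5, which rose. Towards the start Eif4e3 (-13.67 Mb), Fbln2 (-22.09 Mb), Anxa4 (-26.57 Mb) and Mrpl35 (-41.51 Mb) joined Gpnmb, and each rose.

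**Figure D3:**
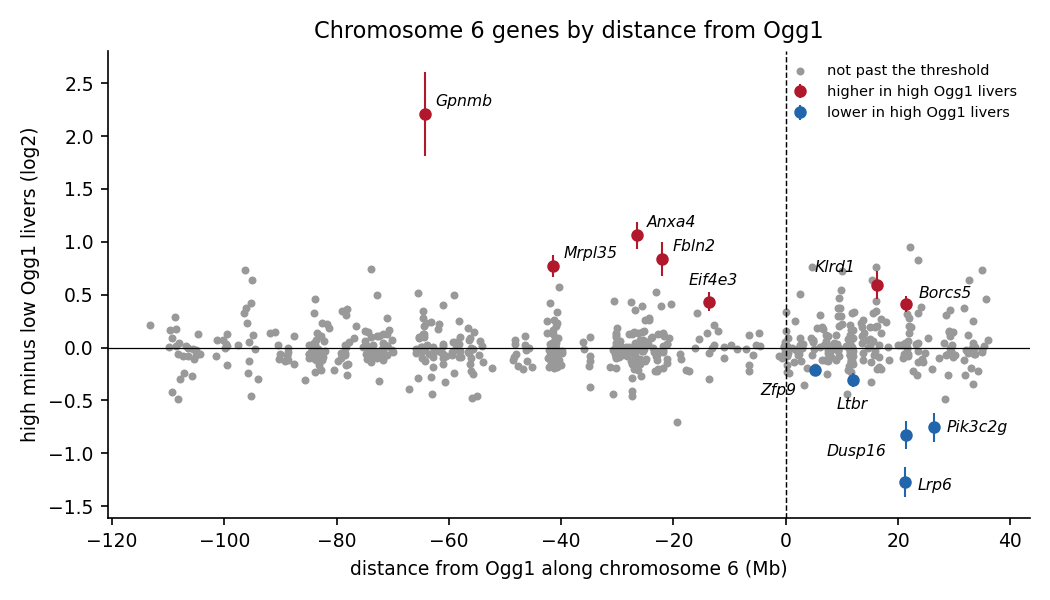
High minus low difference (y axis, log2) of each chromosome 6 gene by its distance from Ogg1 (x axis, Mb), with genes past the threshold in red (higher in high Ogg1 livers) or blue (lower) and bars of 1 SE. None of the 44 genes within 5 Mb of the dashed line, where Ogg1 lies, is past the threshold, while Lrp6 at 21.18 Mb is at -1.27 and Gpnmb at -64.28 Mb at 2.21.

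The 6 measured genes nearest to Ogg1 were Brpf1, Tada3, Arpc4, Mtmr14, Cidec and Jagn1. Brpf1, a chromatin reader next to Ogg1, differed by 0.03 ± 0.05 log2 (SE), and Tada3, of histone acetylation complexes, by -0.03 ± 0.07. Arpc4, of the complex that branches actin, differed by 0.15 ± 0.06 between the groups, which missed the threshold (limma, adjusted p = 0.320), and its slope on Ogg1 over all 104 mice passed (0.14 per log2 unit, limma, adjusted p = 0.0399). Mtmr14 differed by -0.04 ± 0.05 and Jagn1 by -0.03 ± 0.08. Cidec, a lipid droplet protein that is induced in fatty liver, had a wide spread and a difference of 0.33 ± 0.26 (limma, adjusted p = 0.544). Its lowest, median and highest log2 ratios were -1.83, 0.07 and 1.02 in high against -2.18, -0.51 and 2.33 in low Ogg1 livers. Ift122, of the transport system of cilia, at 2.56 Mb, had the lowest p of the genes within 5 Mb and passed when the limit-rich class was a covariate (adjusted p = 0.0413).

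The 52 mice between the groups entered none of the tests of high against low Ogg1 livers. The mean of these 52 mice lay between those of the high and the low group for 11 of the 12 genes. These genes were picked because the high and low means differ, so a mean between them does not show a graded relation to Ogg1. For Lrp6 they averaged -0.04 ± 0.40 log2 (SD, n = 52), against -0.77 ± 0.65 in high and 0.50 ± 0.34 in low Ogg1 livers (n = 26 each). For Anxa4 they averaged -0.17 ± 0.46, against 0.36 ± 0.43 in high and -0.70 ± 0.52 in low Ogg1 livers. Eif4e3 was the exception, at -0.14 ± 0.36 in the mice between, beside 0.31 ± 0.38 in high and -0.12 ± 0.28 in low Ogg1 livers.

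The genes most like Ogg1 in pattern over all 104 mice were those already named. Pearson's r with Ogg1 was -0.71 for Lrp6, 0.65 for Anxa4, -0.57 for Dusp16, -0.57 for Pik3c2g, 0.51 for Mrpl35 and 0.49 for Fbln2. Within the 52 mice between the groups, r was -0.23 for Lrp6, 0.08 for Anxa4, 0.01 for Dusp16, -0.0011 for Pik3c2g, -0.11 for Mrpl35 and 0.05 for Fbln2. Of the other called genes, Klrd1 (-0.21), Ltbr (0.21) and Borcs5 (-0.17) had there the sign opposite to that over all mice. Gpnmb (0.31), Eif4e3 (0.22) and Zfp9 (-0.05) kept the sign. These correlations are descriptions. All values share the same arrays and pool, and Ogg1 varied less among the mice between (SD 0.12 log2) than over all mice (SD 0.45).

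A regression of each gene on the Ogg1 ratio over all 104 mice, which uses no cut but shares the 52 mice of the groups, called more genes. It passed 263 of 12314 genes (2.14%), 116 with a positive (0.942%) and 147 with a negative slope (1.19%). Chromosome 6 held 37 of them (5.67% of its genes), 22 positive and 15 negative, against 226 on other chromosomes or unplaced (1.94%). All 12 genes of the group comparison were among the 263, with the same sign. Of the 12 lowest p values, 11 belonged to chromosome 6 genes, and the other was that of Ap1ar (slope -0.20 per log2 unit of Ogg1, adjusted p = 0.00819). Lrp6 had a slope of -1.02 (limma, adjusted p = 2.72e-13), Anxa4 0.87 (2.76e-10) and Gpnmb 1.85 (0.000248). Within 5 Mb of Ogg1 2 of 44 genes passed (4.55%), and the highest share by distance was 8.25% of 194 genes at 20 to 40 Mb. The share passing on other chromosomes ranged from 0.887% on chromosome 13 to 3.47% on chromosome 3, without the Y chromosome and genes with no known chromosome.

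**Figure D4:**
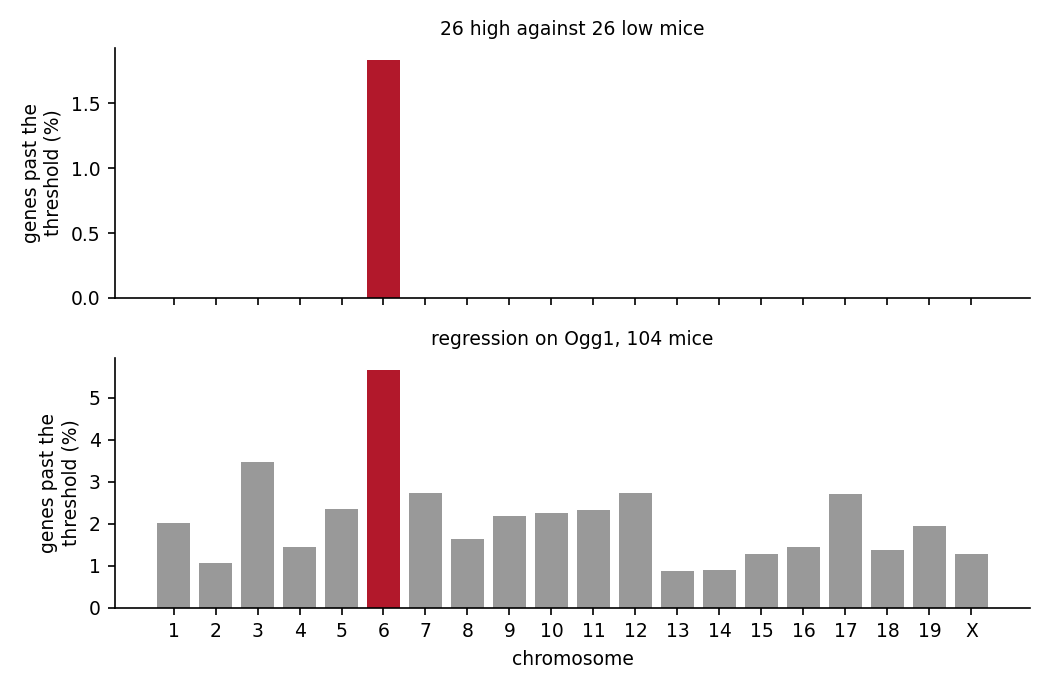
Share of tested genes past an adjusted p of 0.05 (y axis, percent) by chromosome (x axis), for the 26 high against the 26 low Ogg1 livers (top) and for the regression over 104 mice (bottom), chromosome 6 in red. Chromosome 6 is at 1.84% with 0 on each other one at the top, and at 5.67% at the bottom, where chromosome 3 follows with 3.47%.

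Other DNA glycosylases gave 0 calls, in a comparison where 0.0975% of all genes passed, so a list this short would rarely hold one. Of 8 measured glycosylases 0 passed (limma, lowest adjusted p = 0.634), 3 had a positive and 5 a negative difference, and the median was -0.01 log2, equal to the median of all genes tested (-0.01). Mutyh, which removes adenine set opposite 8-oxoguanine, differed by 0.13 ± 0.18 log2 (SE). The glycosylases of oxidised pyrimidines Nthl1 and Neil1 differed by -0.04 ± 0.05 and -0.02 ± 0.08. Those of uracil differed by -0.06 ± 0.13 for Ung and -0.0009 ± 0.03 for Smug1. Tdg and Mbd4, which act on mispaired thymine, differed by 0.02 ± 0.08 and 0.02 ± 0.15, and Mbd4 lies on chromosome 6 only 2.52 Mb from Ogg1. Mpg, which removes alkylated bases, differed by -0.07 ± 0.07. The regression called 0 of the 8, beside 2.14% of all genes.

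Later steps and other kinds of repair also gave no call between the groups, near the 0.0975% of all genes that passed. Of 11 measured genes of base excision repair after the glycosylase 0 passed, with differences from -0.11 to 0.22 log2, a median of 0.09 and 4 with an unadjusted p under 0.05, beside 13.7% of all genes. Nudt1 and Nudt5, the 2 measured genes that clear oxidised nucleotides, had negative differences that did not pass (median -0.11). Of 12 genes of nucleotide excision repair 0 passed, 7 positive and 5 negative with a median of 0.01. The lowest p values were those of Ddb2 at 0.31 ± 0.10 (SE), Ddb1 at 0.14 ± 0.06 and Cetn2 at 0.20 ± 0.09, and Ddb2, a sensor of ultraviolet damage, passed in the regression (limma, adjusted p = 0.0479). In mismatch repair 0 of 5 passed, 2 positive and 3 negative, with Pms2 at 0.33 ± 0.12, Msh3 at -0.10 ± 0.07 and Msh6 at -0.05 ± 0.05, and Pms2 passed in the regression (0.0410). For double-strand break and crosslink repair it was 0 of 12, 10 positive and 2 negative. Rad52 was at 0.18 ± 0.08, Atr at 0.16 ± 0.08 and Fancc at 0.15 ± 0.08. Of these, Rad52 lies on chromosome 6, at 6.58 Mb from Ogg1. Among 8 targets of p53, 0 passed, 3 positive and 5 negative with a median of -0.01 and a range from -0.15 to 0.37. Gadd45b at 0.27 ± 0.14 and Btg2 at 0.37 ± 0.19 had the lowest p values. Of 7 genes that maintain mitochondrial DNA 0 passed, 2 positive and 5 negative, with Mgme1 at -0.32 ± 0.12.

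Genes of defence against oxidants had members on both sides of 0. Of 22 measured antioxidant and Nrf2 genes, 0 passed between the groups, beside 0.0975% of all genes. Of the 22, 10 had a positive and 12 a negative difference, and the median was -0.01 log2. Gclc, which makes the precursor of glutathione, had a mean of -0.56 relative to low Ogg1 livers (± 0.16 SE, adjusted p = 0.298), and its slope on Ogg1 passed over 104 mice (-0.47, adjusted p = 0.0295). Gstm3, a glutathione transferase, differed by 0.996 ± 0.35 and Prdx2, a peroxidase, by 0.94 ± 0.38, neither past the threshold (limma, adjusted p = 0.309 and 0.320).

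Lists of liver metabolism gave 0 calls between the groups, near the 0.0975% of all genes that passed. Of 10 measured genes of fatty acid oxidation and targets of PPAR alpha, 10 had a negative difference and 0 passed, with a median of -0.43 log2 beside -0.01 over all genes. Cyp4a14 was at -1.26 ± 0.48 (SE), Acot1 at -1.01 ± 0.33 and Ehhadh at -0.70 ± 0.25 (limma, adjusted p = 0.311, 0.298 and 0.311). In the regression 5 of the 10 passed with a negative slope, these 3 among them, beside 1.19% of all genes. The mean ratio of this list ran from -3.23 to 0.68 in high (median -0.53) and from -2.52 to 0.98 in low Ogg1 livers (median 0.02), and the ranges overlapped. Bile acid genes were negative in 11 of 12 (median -0.23, Cyp8b1 -0.36 ± 0.17) and fatty acid synthesis genes in 8 of 10 (median -0.17, Me1 -0.48 ± 0.15), and 0 passed in either list. Of 11 lipid droplet genes 0 passed, 5 positive and 6 negative, with a median of -0.07 and a range from -0.81 to 0.55. G0s2 at -0.81 ± 0.31 and Plin2 at -0.45 ± 0.18 had the lowest p values, and Plin2 passed in the regression (adjusted p = 0.0410). Cholesterol synthesis had a median of 0.12 over 8 genes, 6 positive and 2 negative, with 0 past the threshold, and Dhcr7 was at 0.24 ± 0.09.

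Marker lists of other cell types also gave 0 calls between the groups, near the 0.0975% of all genes that passed. Neutrophil markers had a median difference of 0.89 log2, with 7 of 8 positive and 0 past the threshold (limma, adjusted p = 0.298 or more), and without the limit-rich arrays the median was 0.55. Ngp was at 1.34 ± 0.47 (SE), S100a8 at 1.12 ± 0.37 and Camp at 1.01 ± 0.31, and Camp passed in the regression (adjusted p = 0.0399). On the arrays that were not limit-rich these differences were 0.72 for Ngp, 0.62 for S100a8 and 0.59 for Camp, against 4.74, 3.86 and 3.27 on the limit-rich ones, and the interaction passed for each (limma, adjusted p = 0.0216, 0.0256 and 0.0143). The mean ratio of the neutrophil list ran from -1.48 to 2.58 in high (median -0.09) and from -1.93 to 1.76 in low Ogg1 livers (median -1.05). Macrophage and Kupffer cell markers had C1qa at 0.55 ± 0.16, Fcer1g at 0.66 ± 0.23 and Tyrobp at 0.59 ± 0.21, none past the threshold. Their mean ratio ran from -0.71 to 1.36 in high and from -1.52 to 1.201 in low Ogg1 livers.

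Bile duct markers had a median of 0.50 with 7 of 7 positive (Cftr 0.63 ± 0.30), class II antigen presentation 0.33 with 5 of 5 (Cd74 0.42 ± 0.17) and proliferation genes 0.29 with 11 of 11 (Mcm2 0.26 ± 0.10, Mcm5 0.30 ± 0.12), and 0 passed in any of these. Stellate cell markers were positive in 10 of 11, B and plasma cell markers in 6 of 6 (median 0.20, Cd79b 0.28 ± 0.12) and T and NK cell markers in 9 of 11, and 0 passed in any of these. Sparc, a stellate cell marker, was at 0.49 ± 0.25, and at -0.091 with the first principal component as a covariate. T and NK cell markers ranged from -0.10 to 0.62, and the one of lowest p, Prf1, was the lowest at -0.10 ± 0.03. Interferon response genes were negative in 6 of 9 and endothelial markers in 7 of 8. Medians were near 0 for acute phase (0.03), interferon response (-0.05), endothelial (-0.07), erythroid (0.02), pancreatic acinar (-0.05), skeletal muscle (-0.03), hepatocyte (-0.04) and clock genes (0.02), with 0 past the threshold in each. With 0.0975% of all genes past the threshold, 0 calls in these short lists are near the share over all genes. Members of a list were measured in the same livers, so a count of signs is not a count of separate observations.

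**Figure D5:**
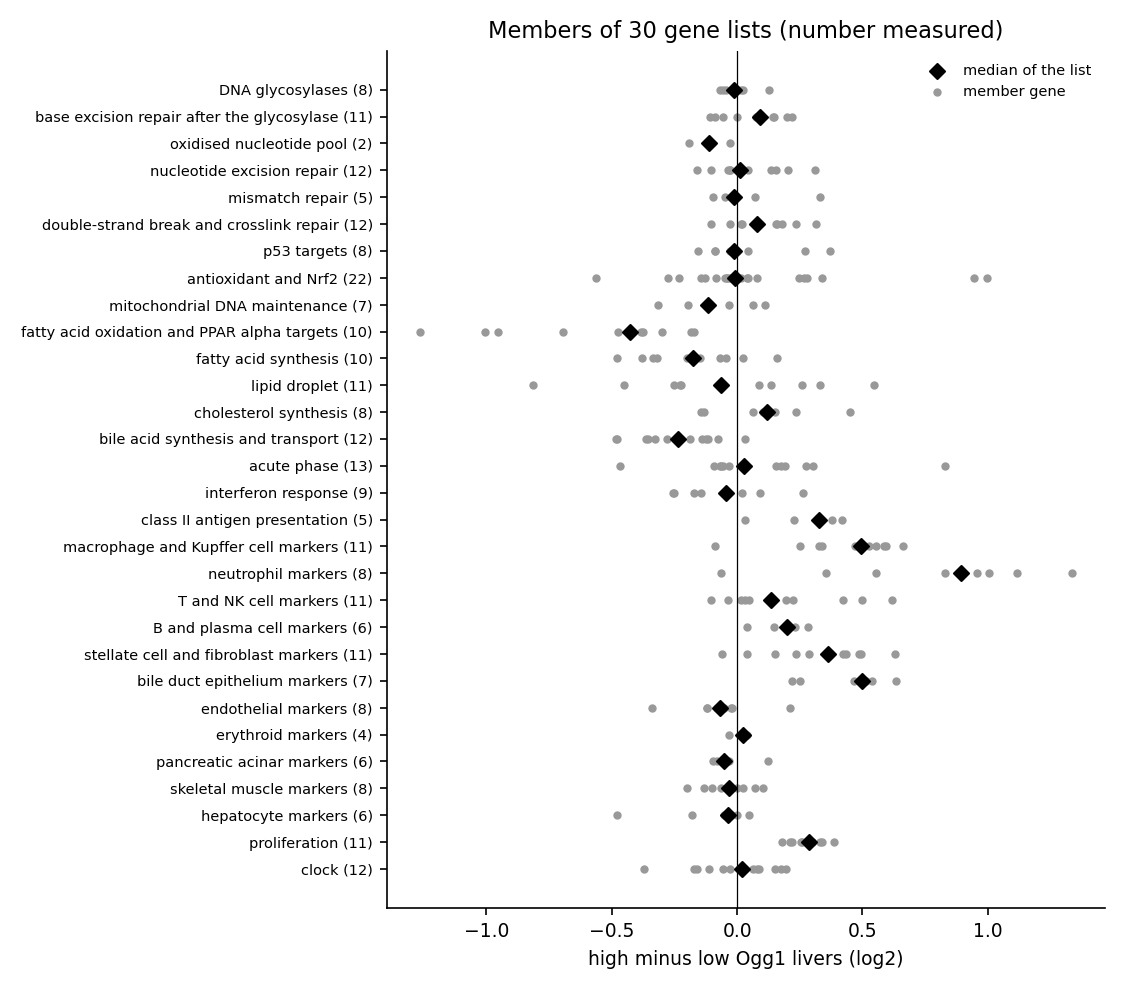
High minus low difference (x axis, log2) of each measured member (grey points) of 30 gene lists (rows, with the number measured), and the median of each list (black diamonds). DNA glycosylases have a median of -0.01 (range -0.07 to 0.13), fatty acid oxidation genes -0.43 (-1.26 to -0.17) and neutrophil markers 0.89 (-0.06 to 1.34).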

How the data were processed

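The deposited table holds 23536 probe values for 107 arrays, read as log10 ratios of a mouse's liver RNA to the pool. How the authors scanned, corrected and normalized the arrays is not given in the sources used here, nor are log base, dyes and direction. Arrays with no nonzero value (3) were left out. Values at -2 or 2 (1.07% of values) were set missing, and a further 1.69% were missing. Ratios carry no depth and no measure of signal over background.

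Probes with 1 gene symbol in the platform annotation (14744, against 18 with several and 8774 with none) were named through the gene table of GRCm38.p6, and 13238 had values on at least 90% of arrays. Probes of a gene were averaged, which gave 12315 genes, 11972 of them in the gene table. Values were turned into log2. Genes were tested with limma 3.58.1 (lmFit and eBayes, R 4.3.3), high minus low Ogg1 livers, without covariates and without Ogg1, with Benjamini-Hochberg adjustment over all 12314 genes and a threshold of 0.05. The fit was tested on simulated data. Of 339 list entries, 274 were measured. Alternatives kept the limit values, changed the filter, centred, scaled or quantile-normalized the arrays, tested probes singly, added array class or the first principal component, left out limit-rich arrays or used them alone, used robust eBayes, turned all signs, read natural logarithms or regressed on Ogg1. Leaving out single mice, leaving out mice 100 and 140, and testing all probes were added after seeing the data.

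The text names the called genes within 10 Mb of Ogg1, the 6 nearest genes, the 6 called genes of lowest adjusted p elsewhere on chromosome 6, up to 6 called genes higher and 6 lower on other chromosomes (there were 0), all glycosylases, up to 3 members of each other list, and the 6 genes of largest absolute r. Borcs5, Fbln2, Eif4e3, Klrd1 and Ltbr are named so that all 12 called genes are given, and Ift122 and Ap1ar after their values were seen. The members and lists were chosen with earlier results of these data known. All mice belong to the 1 group the labels give. Each mouse has 1 array, so p-values rest on the spread between mice and the noise of the array together.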

Additional observations from a re-analysis of the deposited data

Results flagged for a closer look

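Of the 12 genes past the threshold, 2 had a difference between high and low Ogg1 livers that itself differed between limit-rich and other arrays, by limma's interaction term. Lrp6 differed by -2.39 log2 on the limit-rich arrays (4 high and 4 low) and by -1.07 on the others (22 and 22), a gap of -1.32 (limma, adjusted p = 0.00452). Fbln2 differed by 2.05 on the limit-rich arrays and by 0.62 on the others, a gap of 1.43 (limma, adjusted p = 0.0232). Both kept their sign in each class of arrays.

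The same held for 3 neutrophil markers that did not pass between the groups. Ngp differed by 4.74 on the limit-rich arrays and by 0.72 on the others, a gap of 4.02 (limma, adjusted p = 0.0216). S100a8 differed by 3.86 and 0.62, a gap of 3.24 (limma, adjusted p = 0.0256). Camp differed by 3.27 and 0.59, a gap of 2.67 (limma, adjusted p = 0.0143).

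Over all genes the interaction passed for 659 of 12298 (5.36%), more than the 12 of the comparison itself. The limit-rich class rests on 4 mice of each group, and the fit takes 1 spread per gene for both classes. The SD within groups had a median over genes of 0.29 log2 on the limit-rich and 0.28 on the other arrays. Over its probes, a limit-rich array of the groups had an SD from 0.77 (mouse 105) to 1.41 (mouse 71). The median of that SD over all arrays of a group was 0.43 in both groups. Whether the 659 come from few mice with extreme values was not tested.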

How the results depend on the processing

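The 12 genes kept their sign in each setting tried. Turning all signs and reading natural logarithms could not change a sign. Without limit-rich arrays 8 of the 12 (Lrp6, Anxa4, Mrpl35, Dusp16, Pik3c2g, Gpnmb, Borcs5 and Fbln2) kept the call. The number of genes differing between high and low Ogg1 livers was 19 with arrays centred and scaled (13 higher and 6 lower, against 7 and 5), of which 17 lay on chromosome 6, and 263 with the regression over all mice, of which 37 did. On the limit-rich arrays alone, 4 against 4, it was 0 of 11520 at an adjusted p under 0.05 by limma, with 1586 at an unadjusted p under 0.05. Leaving out each of the 52 mice in turn, chosen after seeing the data, gave 10 to 17 genes in all and 10 to 16 on chromosome 6, and 12 of the 52 fits called a gene elsewhere. The other settings gave counts within 1.5 times of 12, among them 8 without limit-rich arrays and 10 without mice 100 and 140. Calls lost were those of Fbln2 with values at the limits kept (adjusted p = 0.0597), Eif4e3 with quantile normalization (0.0613), Eif4e3, Zfp9, Klrd1 and Ltbr with the first principal component as a covariate (0.286, 0.0634, 0.225 and 0.209), and Zfp9, Klrd1 and Ltbr without mice 100 and 140 (0.0505 each). The cause was not tested. No paired analysis was possible because the labels give a single group of mice.

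Signs turned 28 times among the other named genes, none of them past the threshold on either side. With the first principal component as a covariate the log2 difference was 0.057 for Nthl1, 0.022 for Neil1, 0.075 for Ung, 0.0075 for Smug1, -0.041 for Tdg, -0.10 for Mbd4, 0.018 for Msh3, -0.0043 for Btg2 and -0.091 for Sparc. On limit-rich arrays alone it was 0.080 for Tada3, 0.0092 for Smug1, -0.047 for Tdg, 0.011 for Msh6, -0.035 for Fancc and -0.49 for Prdx2. With arrays centred and scaled it was 0.037 for Ung, 0.0023 for Smug1 and -0.016 for Mbd4, and with quantile normalization it was 0.035 for Ung, 0.00042 for Smug1 and -0.070 for Mbd4. Smug1 was at 0.0091 with arrays centred on their median and at 0.0063 without mice 100 and 140. Mbd4 was at -0.076 with values at the limits kept and at -0.12 without limit-rich arrays, where Nthl1 was at 0.0082. In the regression the slope was 0.0041 for Neil1 and -0.029 for Tdg.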

Other observations

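Probes without a single gene symbol were tested together with the named ones, each by itself, an analysis added after seeing the data. Of 20632 probes, 18 passed limma's test at an adjusted p under 0.05. Among the 7395 probes without a single symbol, 5 passed, 3 higher and 2 lower in high Ogg1 livers, with absolute differences from 0.31 to 0.86 log2. Their chromosomes were not analysed here.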
